A study of Rattus norvegicus with 12 samples.

Results

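Apart from Ahcyl1, a relative of Ahcy, the 9 enzymes described here carry methionine around the methionine cycle and move its sulfur into cysteine. They were chosen by name as the genes Mat1a, Mat2a, Ahcy, Ahcyl1, Cbs, Cth, Bhmt, Bhmt2 and Mtr, and found on the array through the RefSeq accessions of 12 probes. All 9 passed the filter on dim probes, among 21874 genes tested. Probe targets that matched no gene symbol were each counted as a gene, so the shares of all genes below include them. The array held 16667 genes with a symbol. Liver RNA came from 12 adult male Wistar rats, with 1 rat on each single-colour Agilent array. For 4 weeks, 6 rats had a control diet whose protein was 14% casein, and the other 6 had a low protein diet of equal energy content with 5% casein. The arrays served to look at the enzymes of metabolites that respond to protein undernutrition; the metabolites themselves were not analysed here. No genotype, transgene or drug separates the groups, and in whole liver RNA fewer cells of a type cannot be told apart from less RNA per cell.

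Methionine adenosyltransferase joins methionine to ATP and makes S-adenosylmethionine (SAM), the donor of most methyl groups in the cell. Methyltransferases turn SAM into S-adenosylhomocysteine, which is split into adenosine and homocysteine. Homocysteine is then either methylated back to methionine, with a methyl group from folate or from betaine, or joined to serine and passed down the transsulfuration pathway to cysteine. The liver carries most of this flux, and it is the organ where the betaine route and transsulfuration are most active.

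On the 12 arrays 61.2% to 69.95% of spots stood well above background. Values below are log2 signals relative to the array's own 75th percentile, which ranged over 942 to 1317 intensity units, so 0 stands for that percentile, and a gene is called changed at a limma adjusted p under 0.05 over all genes tested. There were 2 slides, and scan and slide coincided. Control rats 2 and 4 shared slide 2 with low protein rats 5 and 6, while the other 4 rats of each diet were on slide 1. Position within a slide went with diet. On slide 1 each diet filled a row of its own, and on slide 2 the diets sat in different columns. Comparing rats within a slide therefore cannot separate diet from position, and the part of position was not tested. All 7 hepatocyte markers (Alb, Ttr, Apoa1, Apob, Tf, Serpina1 and Cyp2e1) were measured, and their summed level was 9.43 to 9.66 in control and 9.25 to 9.61 in low protein livers. Of these markers, Apoa1 fell and the others did not pass the test, and the median change of the 7 was -0.14. Low protein rats 3, 4, 5 and 6 had sums (9.40, 9.25, 9.35 and 9.28) below every control rat. Low protein rats 1 and 2 (9.61 and 9.48) lay within the control range. No measured marker of macrophages, endothelium, stellate cells, bile ducts, lymphocytes or blood passed the test, and the 6 of macrophages had a median change of -0.35, with sums of 3.64 to 4.70 in control and 3.65 to 4.21 in low protein livers. All 6 macrophage markers had lower means. Their limma unadjusted p was under 0.05 for Cd68, Marco, Adgre1 and Csf1r but not for Clec4f or Cd163, where 21.6% of all genes were under it. Periportal hepatocyte markers had a summed level of 6.18 to 6.77 in control and 5.50 to 5.83 in low protein livers, with 4 of 6 lower. Their median change was -0.74. For pericentral markers these sums were 5.47 to 5.95 and 5.09 to 5.38, with 1 of 6 lower. That marker was Oat (-2.18), while the median change of the 6 was -0.08. Glul (0.31) and Tbx3 (0.66) had higher means and did not pass. Some of these zonal markers are themselves enzymes of amino acid breakdown, and their part in the results below was not tested.

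In low protein livers methionine synthase rose, the homocysteine methyltransferase Bhmt2 fell, and both transsulfuration enzymes had lower means that missed the threshold. Mtr was 1.56-fold higher (log2 0.64 ± 0.13, SE; 6 rats in each diet; limma adjusted p = 0.0157), and Bhmt2 was 1.34-fold lower (-0.42 ± 0.11, adjusted p = 0.0344). Thus 2 of the 9 enzymes changed, 1 in each direction, where 6.53% of all genes tested changed, 3.48% rising and 3.05% falling. Control and low protein values were fully apart for Mtr (higher) and Bhmt2 (lower) and overlapped for the other 7. Over all genes 4.98% were fully apart, 3.00% higher and 1.98% lower. The median change of the 9 enzymes was -0.13, beside -0.03 over all genes and -0.14 over the 7 hepatocyte markers. Cth (-0.65), Cbs (-0.52), Mat2a (0.35) and Bhmt (-0.20) had unadjusted p-values under 0.05, as did 21.6% of all genes, and none of these 4 passed after adjustment. With Mtr and Bhmt2, 6 of the 9 enzymes had an unadjusted p under 0.05.

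**Figure D1:**
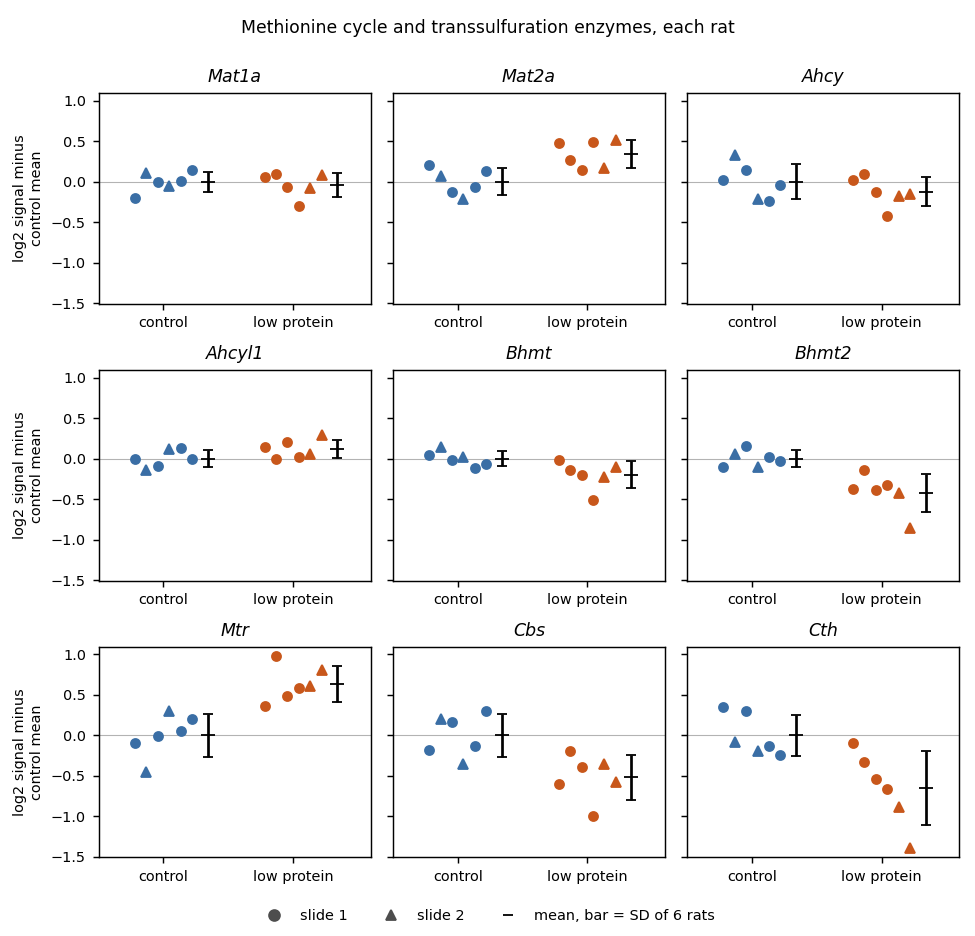
Log2 signal of each of the 9 enzyme transcripts in each rat, with the control mean of that gene set to 0; circles are rats of slide 1, triangles rats of slide 2, and the bar to the right of each group is the mean with the SD of 6 rats. All 6 low protein rats lay above all control rats for Mtr and below them for Bhmt2, while the groups overlapped in the other panels, with 5 of 6 low protein rats below all control rats for Cth and 4 of 6 for Cbs and Bhmt.

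The methionine adenosyltransferases come first. Mat1a encodes the catalytic subunit of adult hepatocytes, and Mat2a the subunit used in most other tissues and in the growing or fetal liver. Mat1a ranged from 6.00 to 6.34 with a median of 6.21 in control livers, and from 5.90 to 6.29 with a median of 6.20 in low protein livers. The groups overlapped over most of their range, with 3 low protein rats on each side of the control mean and only low protein rat 4 below every control rat. Its change was -0.04 ± 0.09 (adjusted p = 0.858), with a 95% interval from -0.22 to 0.15, and its sign turned without low protein rat 4 (0.017) and without scaling between arrays (0.10, where the median of all genes was 0.11).

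Mat2a was read by 2 probes, both dim but well above background on all 12 arrays. The probe taken for the gene, the brighter over all arrays, ranged from -4.00 to -3.57 (median -3.78) in control and from -3.64 to -3.27 (median -3.41) in low protein livers. All 6 low protein rats lay above the control mean, and 4 lay above every control rat. That probe had a change of 0.35 ± 0.10 (adjusted p = 0.0588), which did not pass. The other probe ranged from -4.50 to -3.92 (median -4.23) in control and from -3.76 to -2.56 (median -3.67) in low protein livers, with no overlap. In a fit over all 25704 probes, of which 6.69% were called, it rose by 0.74 ± 0.19 (adjusted p = 0.0370). Low protein rat 3 stood apart on that probe at -2.56, and without it the change was 0.56 ± 0.11 (adjusted p = 0.0124). The call also held without control rat 1 or low protein rats 1 or 6, and was lost without each of the other 8 rats (adjusted p from 0.0510 to 0.0822). The mean of both probes rose by 0.54 (adjusted p = 0.0117), so the call for Mat2a rests on how its probes are combined. It also passed with the brighter probe without scaling (0.48, adjusted p = 0.0452), without control rat 1 (0.39, adjusted p = 0.0472) and without low protein rat 3 (0.39, adjusted p = 0.0464). After normexp background correction, whose offset compresses dim spots, the change of the brighter probe was 0.16.

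On the same array, the difference between Mat2a and Mat1a moved with diet. Set against its control mean, the log2 difference Mat2a minus Mat1a was -0.16 to 0.41 in control rats (median -0.06) and 0.18 to 0.80 in low protein rats (median 0.34). The highest control rat lay within the low protein range, so the groups overlapped. The shift was 0.38 (95% interval 0.10 to 0.67, n = 6 rats per diet), with an exact two-sided permutation p = 0.0108, and 0.0271 after adjustment over the 5 enzyme pairs compared. It missed the threshold with slide as a block (adjusted p = 0.0731, limma). The shift was 0.16 (adjusted p = 0.254, exact permutation test) after normexp and 0.23 (adjusted p = 0.168) in the deposited values, and it passed without control rat 1 or low protein rats 2, 3 or 5 but not without any of the other 8 rats (0.0541 to 0.0703).

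The regions upstream of both genes are shown because the shift between these enzymes of 1 reaction passed the main test, though not all alternatives. The region of Mtr is shown because Mtr rose. RefSeq's promoter table for GRCr8 held 8 of the 9 enzymes, and the 250 bases before the annotated start are printed 5′ to 3′ on the gene's strand, with each CpG (a C followed by a G, the site of DNA methylation) in capitals.
Mat1a, chr16:17016918-17017167, plus strand: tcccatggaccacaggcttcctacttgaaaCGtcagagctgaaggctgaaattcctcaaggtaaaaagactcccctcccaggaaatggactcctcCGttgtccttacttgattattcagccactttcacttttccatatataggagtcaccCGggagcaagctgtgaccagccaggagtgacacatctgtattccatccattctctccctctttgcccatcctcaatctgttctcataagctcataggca
Mat2a, chr4:106053613-106053862, minus strand: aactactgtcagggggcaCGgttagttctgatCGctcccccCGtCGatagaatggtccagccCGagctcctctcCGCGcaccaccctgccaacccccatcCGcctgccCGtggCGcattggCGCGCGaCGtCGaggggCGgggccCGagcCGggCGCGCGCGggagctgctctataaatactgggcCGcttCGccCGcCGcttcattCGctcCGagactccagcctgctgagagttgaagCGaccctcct
Mtr, chr17:62911528-62911777, plus strand: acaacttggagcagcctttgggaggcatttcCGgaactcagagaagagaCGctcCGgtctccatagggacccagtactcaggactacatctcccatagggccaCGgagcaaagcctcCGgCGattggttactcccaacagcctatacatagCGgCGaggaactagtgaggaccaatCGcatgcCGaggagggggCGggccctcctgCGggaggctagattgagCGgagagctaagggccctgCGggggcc
Mat1a had 3 CpGs and 48.0% G or C in this stretch, Mat2a 29 and 67.6%, and Mtr 14 and 60.8%. Over all 33469 promoters of the table the median was 5 CpGs, with quartiles of 2 and 15. The letters TATAAA, the core of a TATA box, were found on either strand in 12.9% of all promoters and among the enzymes in Mat2a and Bhmt. The letters TGATGNAA, the core of the element read by ATF4 in amino acid shortage, were found in 3.40% of all promoters and in none of these 8 stretches, which says only that they are not in these windows.

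Adenosylhomocysteine is removed by Ahcy, the only enzyme known to hydrolyse it in mammals. Ahcy ranged from 5.07 to 5.64 (median 5.30) in control and from 4.89 to 5.41 (median 5.17) in low protein livers. The groups overlapped over most of their range, and 4 of 6 low protein rats were below the control mean. The change was -0.13 ± 0.11 (adjusted p = 0.585, 95% interval -0.37 to 0.12), and 0.0072 without scaling.

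Ahcyl1, a relative of Ahcy known as a binding partner of the inositol trisphosphate receptor, was read by 3 probes. Its brightest probe ranged from 2.54 to 2.81 (median 2.67) in control and from 2.68 to 2.97 (median 2.78) in low protein livers. All 6 low protein rats were at or above the control mean, but the change of 0.12 ± 0.08 did not pass (adjusted p = 0.407). The other probes had changes of 0.02 and -0.0033, and neither passed. The log2 difference Ahcyl1 minus Ahcy shifted by 0.24 (95% interval -0.11 to 0.59, exact permutation p = 0.154, 0.192 adjusted over the 5 pairs), so the data do not tell these 2 apart and do not show that they moved alike.

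Homocysteine is methylated back to methionine by a folate-dependent and a betaine-dependent enzyme. Mtr, methionine synthase, uses methyltetrahydrofolate and needs vitamin B12. It ranged from -5.01 to -4.26 (median -4.54) in control and from -4.19 to -3.59 (median -3.97) in low protein livers. Every low protein rat lay above every control rat, with the closest pair being control rat 4 (-4.26) and low protein rat 1 (-4.19). The 95% interval of the log2 change was 0.35 to 0.93. The probe was dim, at 32.4 to 97.6 intensity units, but well above background on all 12 arrays. Background handling moved the size of its rise. The change was 0.25 (adjusted p = 0.0270) after normexp and 0.41 (adjusted p = 0.0103) in the scaled deposited values. The change of Mtr was 0.57 on slide 1 (adjusted p = 0.118) and 0.78 on slide 2 (adjusted p = 0.450) taken alone, in fits of 4 and 2 rats per diet. Without the filter on dim probes its limma adjusted p was 0.0476. The median change of all genes was then 0.06, beside -0.03 with the filter, and the part of dim signal in the rise was not tested.

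Bhmt, betaine homocysteine methyltransferase, is among the abundant proteins of liver. It ranged from 6.90 to 7.15 (median 7.005) in control and from 6.502 to 6.99 (median 6.84) in low protein livers. All 6 low protein rats were below the control mean and 4 were below every control rat, yet the change was small, -0.20 ± 0.09 (adjusted p = 0.191, 95% interval -0.39 to -0.02). Without scaling the change was -0.07, and after quantile normalization -0.10.

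Bhmt2 is a close relative that methylates homocysteine from S-methylmethionine rather than betaine. It ranged from 3.22 to 3.49 (median 3.32) in control and from 2.47 to 3.19 (median 2.94) in low protein livers. The closest rats across the diets were low protein rat 2 (3.19) and control rat 4 (3.22), and low protein rat 6 was the lowest. The 95% interval of the fall was -0.65 to -0.19. The call held without control rat 1 or low protein rats 2, 4 or 6 and was lost without each of the other 8 rats (adjusted p from 0.0508 to 0.0828). It was also lost without scaling (-0.29, adjusted p = 0.227), without the filter on dim probes (adjusted p = 0.101), and on slide 1 (-0.32, adjusted p = 0.175) or slide 2 (-0.62, adjusted p = 0.411) alone.

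The difference between Mtr and Bhmt, the enzymes of the 2 methyl donors, moved with diet. Mtr had the larger change (0.64), and Bhmt by itself did not pass (-0.20, limma adjusted p = 0.191). The log2 difference Mtr minus Bhmt, against its control mean, was -0.59 to 0.29 in control rats (median 0.09) and 0.39 to 1.12 in low protein rats (median 0.87), with no overlap. The shift was 0.84 (95% interval 0.45 to 1.23), and the exact permutation p of 0.00216 is the smallest that 924 regroupings allow (0.0108 adjusted over the 5 pairs). After normexp the shift was 0.44. Bhmt2 and Bhmt could not be separated in this way: their difference shifted by -0.22 (95% interval -0.54 to 0.10, exact permutation p = 0.152, 0.192 adjusted). After quantile normalization that shift was -0.40 (adjusted p = 0.00541).

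**Figure D2:**
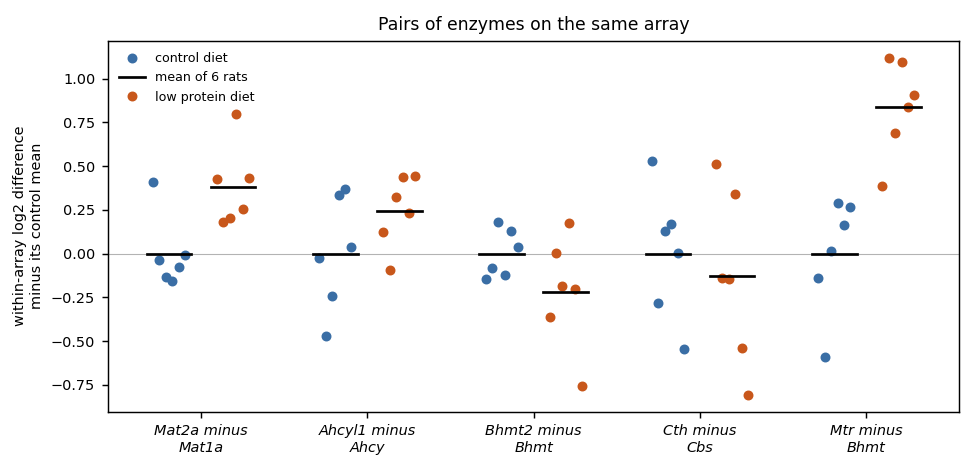
Within-array log2 difference of 5 pairs of enzymes in each rat, minus the control mean of that difference; blue points are control rats, orange points low protein rats, and lines are means of 6 rats. The low protein rats lie wholly above the control rats for Mtr minus Bhmt, and the groups overlap in the other 4 pairs.

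Transsulfuration starts with Cbs, cystathionine beta-synthase, which joins homocysteine to serine. Cbs ranged from 3.35 to 4.01 (median 3.72) in control and from 2.71 to 3.51 (median 3.22) in low protein livers. All 6 low protein rats were below the control mean and 4 were below every control rat, while low protein rats 2 and 5 lay within the control range. The change was -0.52 ± 0.15, or 1.43-fold lower, and missed the threshold (adjusted p = 0.0569, 95% interval -0.84 to -0.20). It passed after normexp (-0.57, adjusted p = 0.0232) and in the deposited values once scaled between arrays (-0.58, adjusted p = 0.0281). After quantile normalization (-0.61, adjusted p = 0.0250) and with a trended robust spread (adjusted p = 0.0367) it passed too. It also passed without control rat 4 (-0.59, adjusted p = 0.0431) or low protein rat 2 (-0.58, adjusted p = 0.0489).

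Cth, cystathionine gamma-lyase, releases cysteine from cystathionine and can form hydrogen sulfide. It ranged from 2.48 to 3.06 (median 2.61) in control and from 1.33 to 2.63 (median 2.12) in low protein livers. Of the low protein rats 5 lay below every control rat, and only low protein rat 1 (2.63) lay within the control range. Low protein rats were spread more widely (SD 0.45) than control rats (SD 0.26). The change was -0.65 ± 0.20, or 1.57-fold lower, and it missed the threshold (adjusted p = 0.0697, 95% interval -1.07 to -0.22). With slide as a block it passed (adjusted p = 0.0332), and on slides 1 and 2 alone the change was -0.47 and -1.001. It also passed after quantile normalization (-0.71, adjusted p = 0.0438) and without low protein rat 1 (-0.76, adjusted p = 0.0373). Both slide 2 low protein rats, 5 and 6, were the lowest of all 12. The log2 difference Cth minus Cbs shifted by -0.13 (95% interval -0.70 to 0.44, exact permutation p = 0.623), so no unequal change of these 2 enzymes was shown, within a wide interval. That shift was 0.11 on slide 1 and -0.61 on slide 2, and 0.0054 without low protein rat 6.

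**Figure D3:**
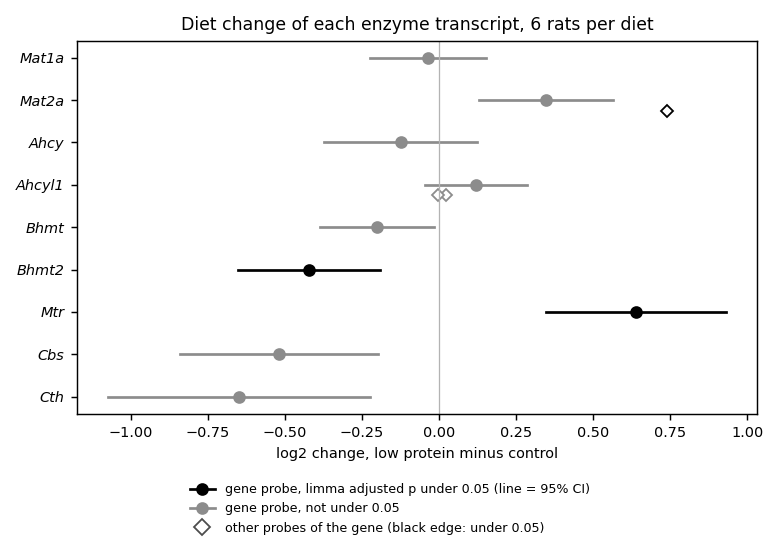
Log2 change (low protein minus control) of each enzyme with its 95% interval from limma, 6 rats per diet; filled circles are the probe taken for the gene, black where the adjusted p was under 0.05, and diamonds are other probes of the same gene, with a black edge where their own adjusted p was under 0.05. Mtr and Bhmt2 are black, and the second probe of Mat2a lies at 0.74, to the right of the first at 0.35.

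The enzymes did not follow 1 order of rats. Low protein rat 4 had the lowest of the 12 values for Mat1a, Ahcy, Cbs and Bhmt. It also had the lowest summed level of hepatocyte markers, 9.25. Low protein rat 6 had the lowest values for Cth and Bhmt2 and the highest for Mat2a and Ahcyl1, and its hepatocyte marker sum was 9.28. Among control rats, rat 2 had the lowest Mtr and Ahcyl1 of the 12 and the highest Ahcy and Bhmt. The part of the marker sums in these values was not tested.

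Genes with the most similar pattern were found by the root mean square difference (RMS) between their 12 values and those of an enzyme, each centred on its own mean, over 11374 other genes with a symbol. For Bhmt2 these were Spint2 (RMS 0.09), Clybl (0.09) and Aadat (0.09), where Bhmt2 itself varied around its mean by an RMS of 0.27. For Mtr they were Wdr89 (RMS 0.18), Cfap69 (0.18) and Dhx33 (0.18), with 0.39 for Mtr itself. The likeness includes the shared step between the diets.

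Of 38 neighbouring genes listed by role, 34 were measured, and 5 rose and 8 fell, where 3.48% of all genes tested rose and 3.05% fell. Their median change was 0.03, beside -0.03 over all genes. In 9 of them every low protein value lay on 1 side of the control values, as in 4.98% of all genes. The counts by role below stand against the same shares, and each role holds few genes. Around the remethylation step, none of 6 measured genes of methyl group supply rose and 2 fell: Dmgdh, which takes a methyl group from dimethylglycine, the product of Bhmt (-0.46 ± 0.09, adjusted p = 0.00998), and Aldh7a1, which can make betaine from its aldehyde (-0.42 ± 0.06, adjusted p = 0.00239). Mtrr, the reductase that reactivates Mtr, chosen here after its value was seen, was at 0.11 ± 0.09 (adjusted p = 0.542). Mat2b, the regulatory partner of Mat2a, was at 0.04 (adjusted p = 0.868), and Ahcyl2, a relative of Ahcyl1, at 0.30 (adjusted p = 0.174).

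Among the 7 measured enzymes that spend SAM, none rose. Inmt, which methylates indole amines, fell by 4.03 on the log2 scale (SE 0.54, adjusted p = 0.00116). Inmt ranged from -6.28 to -2.75 in low protein and from -0.72 to 0.28 in control livers, without overlap, and its change was -3.13 after normexp. Gnmt, the abundant liver enzyme that disposes of excess SAM by methylating glycine and likewise chosen after its value was seen, was at -0.22 ± 0.10 (adjusted p = 0.247). In methionine salvage and polyamine synthesis, which also start from SAM, 1 of 8 genes rose and none fell. That was Srm, spermidine synthase, from 0.19 to 0.84 in control and 1.08 to 1.44 in low protein livers (0.74 ± 0.11, adjusted p = 0.00241).

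Downstream of Cth, cysteine is either oxidised to taurine and sulfate, turned into sulfide or built into glutathione, and here 4 of 11 genes rose and 4 fell. The 3 listed genes of glutathione synthesis rose: Gclm, the modifier subunit of glutamate cysteine ligase (1.00 ± 0.15, adjusted p = 0.00273), Gclc, its catalytic subunit (0.74 ± 0.16, adjusted p = 0.0173), and Gss (0.71 ± 0.18, adjusted p = 0.0384). Values of Gss overlapped between the diets, and control rat 1 was its highest control at -0.37. Its call was kept in 3 of 12 fits that left out 1 rat. After normexp the change of Gclm was 0.68. Of the oxidative enzymes, Cdo1, which starts cysteine oxidation, fell (-0.69 ± 0.15, adjusted p = 0.0170), with control rat 1 at 2.38 and the other control rats at 3.18 to 3.26. Sulfite oxidase Suox (-0.64 ± 0.08), the sulfide oxidase Sqor (-0.54 ± 0.09) and the persulfide dioxygenase Ethe1 (-0.61 ± 0.16, adjusted p = 0.0461) fell as well. The call for Ethe1 was kept in 4 of 12 fits that left out 1 rat. Csad, the decarboxylase that leads to taurine, rose (0.89 ± 0.16, adjusted p = 0.00762). Each of these calls is on 1 probe per gene, and the counts describe these lists with no test of the list.

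**Figure D4:**
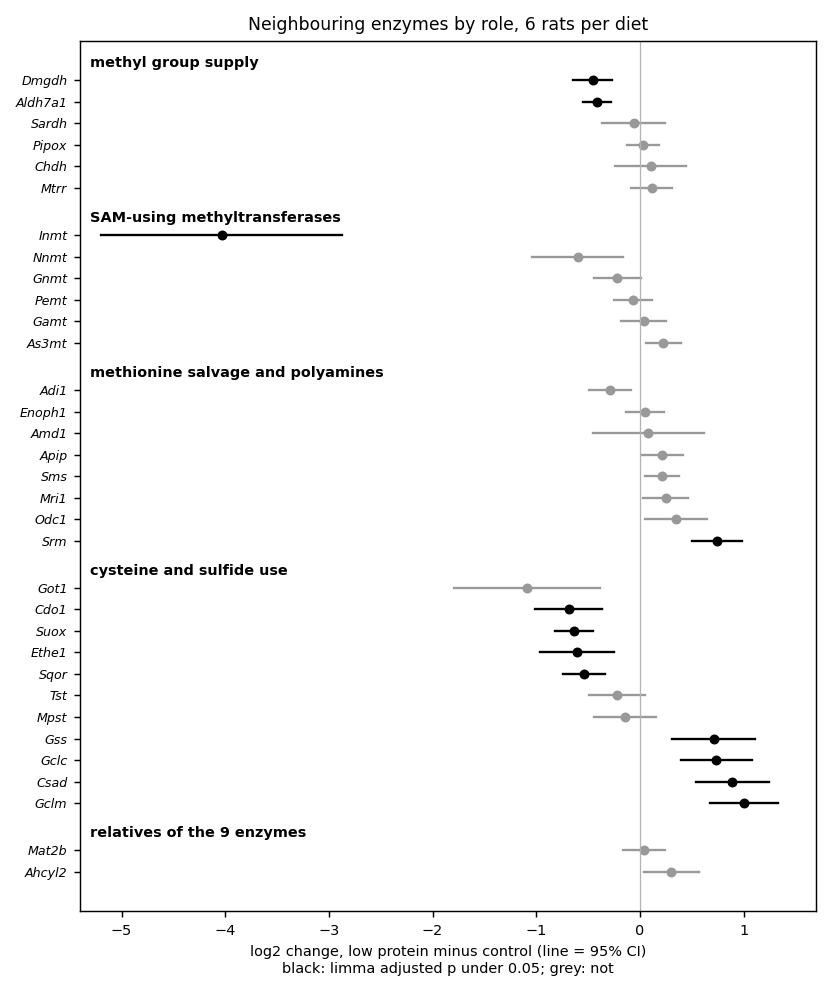
Log2 change (low protein minus control) of neighbouring enzymes with 95% intervals from limma, grouped by role, 6 rats per diet; black points had an adjusted p under 0.05. The glutathione synthesis genes Gclm, Gclc and Gss lie right of 0, and Cdo1, Suox, Sqor and Ethe1 left of it, with Inmt at -4.03 far left.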

How the data were processed

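Total RNA from the livers of 6 rats per diet was labelled with Cy3 and put on Agilent arrays, as the labels state. Agilent Feature Extraction 12.0.3.1 read the scans and subtracted background, per the file headers. The deposited intensity values are linear and not scaled between arrays. For the alternative on deposited values, they were put on the log2 scale and then scaled between arrays like the main values. The deposited value table equals each file's median spot intensity at 100% of spots.

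The 75th percentile was taken over 58717 spots other than controls, and log2 values were averaged per probe after removal of outlier spots (453 to 739 an array); saturation was found in 0 spots. Genes were named through RefSeq accessions (GRCr8 table), which matched 46.5% of 45598 probes. Targets of the other probes were kept and counted as genes without a symbol. Coordinates belong to the printed promoter sequences only; the headers name another build. A probe was kept if 5 or more arrays of either diet had it well above background, and the brightest probe stood for its gene. Levels of different probes were not compared. The value of 1 neighbouring gene is not reported here, though the counts include it. Differences were tested with limma 3.58.1 in R 4.3.3 (two-sided, Benjamini-Hochberg over 21874 genes), and enzyme pairs with exact permutation. Simulated data were used to check the fit. Python 3.11.15 and matplotlib 3.10.9 drew the figures.

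The enzymes and lists were chosen with earlier results of these data known. Named were the enzymes, changed neighbours (up to 2 in a role without any; Mtrr and Gnmt were added after their values were seen), and the 3 nearest patterns of each changed enzyme. Alternatives covered background, scaling, deposited values, filter, outlier spots, probes, spread, slide, rat number and each array left out; leaving arrays out for the other probes of Mat2a and Ahcyl1 was added after seeing the data. Nothing says that a rat number links the diets, so the numbers were not taken as pairs. Deviations of rats with the same number correlated across genes by 0.03 to 0.26. Without the values for unlike numbers beside them, these do not decide whether the rats were paired. Precision is limited by having 12 arrays.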

Additional observations from a re-analysis of the deposited data

Results flagged for a closer look

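Among 50 groups of 6 rats examined (22 genes and 3 further probes, in each diet), 3 had a rat far from the other 5; chance alone gives about 1 in 20 such groups. For the second probe of Mat2a, low protein rat 3 was at -2.56 and the other low protein rats at -3.76 to -3.50. On the first probe of Mat2a the same rat, at -3.64, was the lowest of its diet. For Cdo1, control rat 1 was at 2.38 and the other control rats at 3.18 to 3.26. For Gss, control rat 1 was at -0.37 and the others at -0.99 to -0.77.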

How the results depend on the processing

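Of the 24 alternatives, the change of Mtr kept its call in 22 (lost on each slide alone) and that of Bhmt2 in 11, while Cbs passed in 7, Cth in 4, Mat2a in 4 and Mat1a, Ahcy, Ahcyl1 and Bhmt in none. The number of changed enzymes, 2, became 4 after quantile normalization, 1 without the filter on dim probes and 0 on either slide alone, and was 1 to 3 with 1 rat left out; it was 1 without control rats 2, 3, 5 or 6 or low protein rat 5. That of all genes, 1429, was 891 without scaling, 618 without the filter, 164 on slide 1, 12 on slide 2 and 856 (without control rat 3) to 1307 with 1 rat left out. Without scaling 679 were higher and 212 lower, against 761 and 668, and the median of all genes moved from -0.03 to 0.11. Changed neighbours, 13, were 8 without scaling, 4 and 0 on the slides alone, and 11 to 14 with 1 rat left out. Turned signs were 0.10 (Mat1a) and 0.0072 (Ahcy) without scaling, both below the median of all genes there, and 0.11 for Cth minus Cbs on slide 1. With 1 rat left out Mat1a was -0.076 to 0.017 (positive without low protein rat 4) and Cth minus Cbs -0.26 to 0.0054 (positive without low protein rat 6). The shift of Mat2a minus Mat1a was 0.16 after normexp, 0.23 in the deposited values, 0.38 with slide as a block (adjusted p = 0.0731, limma), 0.35 on slide 1, and 0.30 to 0.46 with 1 rat left out, and that of Mtr minus Bhmt 0.75 on slide 1, where its p was the smallest that 70 regroupings allow (0.0286, 0.143 adjusted, exact permutation test); that of Bhmt2 minus Bhmt was -0.40 after quantile normalization. Slide 2 alone, with 2 rats per diet, gave pair shifts with no test. Each slide alone has fewer rats, and the causes of these differences between settings were not tested.

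The replicate block by rat number called Cbs (adjusted p = 0.0276) and Cth (adjusted p = 0.0291) and lost Bhmt2 (adjusted p = 0.0514), so 3 enzymes passed. Under the block by exact sign flips over 6 pairs, the shifts of 0.38 for Mat2a minus Mat1a and 0.84 for Mtr minus Bhmt both had an adjusted p of 0.0781. Both were at the smallest p that 64 sign flips allow (0.0312), which is reached only where all 6 differences share a sign. The lost calls therefore do not show that these shifts are unstable. The best match in the other diet was the rat of the same number for 2 of 6 control rats. Among the second probes, that of Mat2a passed in 4 of 12 fits that left out 1 rat (0.56 to 0.80), and those of Ahcyl1 turned sign in some of them (-0.034 to 0.097 and -0.064 to 0.047).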
